A study of Mus musculus with 62 samples.

Results

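The genes described here are Mtus2, Mpp7, Tfpi, Clec11a, Arap2, Tmem223, Efna5, App, Bcl11a and Ifi27l1, 10 of the 37620 genes in a table of raw read counts. The file lists them by Ensembl ID, ENSMUSG00000029651 for Mtus2, ENSMUSG00000057440 for Mpp7, ENSMUSG00000027082 for Tfpi, ENSMUSG00000004473 for Clec11a, ENSMUSG00000037999 for Arap2, ENSMUSG00000075043 for Tmem223, ENSMUSG00000048915 for Efna5, ENSMUSG00000022892 for App, ENSMUSG00000000861 for Bcl11a and ENSMUSG00000064215 for Ifi27l1. They were chosen by their raw counts in the progenitor libraries, which fell into 2 separate levels, some clones high and the others low. The progenitor split itself is therefore a description and carries no test. All 10 were among the 11614 genes that passed the filter on low counts in the paired comparison of clones. The bulk RNA libraries number 62, all from mouse. They comprise 24 of monocytic cells and 24 of progenitors, a pair for each of 24 ER-Hoxb8 clones, and 14 of primary monocytes sorted out of bone marrow.

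ER-Hoxb8 cells are bone marrow progenitors of the granulocyte-monocyte type, here given as GMP, that grow without limit in culture because a Hoxb8 protein fused to an estrogen receptor domain blocks their maturation while estrogen is present. Every clone of the study carries that fusion gene and was kept in medium with stem cell factor. A clone descends from a single cell, so its libraries stand for 1 line and not for an animal. The titles call the monocytic libraries Minus and the progenitor libraries Plus, without saying what was added or removed or how long maturation lasted. The primary monocytes are 2 libraries each of nonclassical, intermediate and classical cells and 2 libraries each of 4 populations called class 1 to class 4. The gates behind these names, the strain and the age of the mice are not given in the sources used here, and nothing says whether paired replicates came from separate animals, so a p-value here reflects no more than how these libraries vary, which may be technical.

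Depth for clones 1 to 13 was 22.9 to 34.5 M counts in monocytic and 12.6 to 47.3 M in progenitor libraries. Clones 15 to 25 were shallower, with 1.83 to 9.12 M counts in monocytic and 0.362 to 16.5 M in progenitor libraries, and the primary libraries had 21.2 to 35.02 M. The clone 21 progenitor library was by far the shallowest, and 0 counts in it allow up to 6.54 CPM. CPM are counts scaled to the size of the library with TMM factors, and the limit for 0 counts is taken as 3 counts and covers counting error only. The summed level of 6 progenitor markers (Kit, Cd34, Flt3, Sox4, Myb and Mpo) was 6672 to 15170 CPM in the progenitor libraries. The monocytic libraries of clones 17, 19 and 22 had 6829, 9809 and 17830 CPM, inside or above that range, while the other monocytic libraries had 5317 CPM or less. Clone 22 also had the lowest sum of 7 monocyte markers, 4904 CPM. The number of genes with separate monocytic groups, the comparison of states and that of clone sets are also given without these 3 clones. Other clone results include them unless stated.

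The 10 genes act in unrelated places. Clec11a encodes a secreted lectin that is a growth factor for blood progenitors and bone-forming cells, and Tfpi encodes the secreted inhibitor of the tissue factor step that starts coagulation. Efna5 is an ephrin, a membrane-bound ligand of Eph receptors, and App is the amyloid precursor protein, a membrane protein that secretases cut. Arap2 is a GTPase-activating protein for Arf proteins, Mpp7 a scaffold of cell junctions and polarity, and Mtus2 a microtubule-associated protein. Tmem223 is a mitochondrial protein known in human cells for assembly of cytochrome c oxidase, and Ifi27l1 belongs to a family of interferon-inducible mitochondrial proteins. Bcl11a is a zinc finger repressor needed for lymphoid and dendritic development and known for silencing fetal globin. A gene that is on in some clones and off in others, and keeps that state through cell division, is the usual picture of a heritable expression state. Inheritance through division was not measured in these data. Clec11a and Tmem223 were low rather than off in the progenitors of their low clones.

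The upstream regions of Arap2 and Efna5, which turned out to share 1 split, of App, which mirrored it in nearly all clones, and of Clec11a, which mirrored Tmem223, are printed from the RefSeq promoter table for GRCm38.p6. Each is the 250 bases before the start, 5′ to 3′ on the gene's strand, which is the minus strand for all 4. Capitals mark matches on either strand to GGAAG (ETS), GGGCGG (GC box) or TTGCNNAA (C/EBP). TGTGGT (Runx) and CACGTG (E-box) were searched too and these letters are not in the 4 windows. The windows lie at chr5:62766178-62766427 for Arap2, chr17:62881318-62881567 for Efna5, chr16:85173708-85173957 for App and chr7:44306960-44307209 for Clec11a.
Arap2: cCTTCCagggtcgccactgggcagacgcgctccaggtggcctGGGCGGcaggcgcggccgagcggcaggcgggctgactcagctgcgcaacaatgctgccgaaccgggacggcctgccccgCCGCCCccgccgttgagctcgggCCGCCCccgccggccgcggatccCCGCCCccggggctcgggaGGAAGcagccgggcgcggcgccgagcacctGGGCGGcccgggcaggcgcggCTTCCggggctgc
Efna5: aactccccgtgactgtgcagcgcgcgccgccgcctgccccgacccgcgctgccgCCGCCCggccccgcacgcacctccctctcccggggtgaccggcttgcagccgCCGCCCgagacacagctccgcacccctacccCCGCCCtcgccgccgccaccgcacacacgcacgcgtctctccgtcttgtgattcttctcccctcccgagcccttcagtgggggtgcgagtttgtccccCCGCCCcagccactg
App: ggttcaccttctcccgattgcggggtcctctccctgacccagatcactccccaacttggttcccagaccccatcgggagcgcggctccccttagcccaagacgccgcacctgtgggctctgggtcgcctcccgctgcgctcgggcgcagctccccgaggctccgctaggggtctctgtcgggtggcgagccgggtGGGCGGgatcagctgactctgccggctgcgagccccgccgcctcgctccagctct
Clec11a: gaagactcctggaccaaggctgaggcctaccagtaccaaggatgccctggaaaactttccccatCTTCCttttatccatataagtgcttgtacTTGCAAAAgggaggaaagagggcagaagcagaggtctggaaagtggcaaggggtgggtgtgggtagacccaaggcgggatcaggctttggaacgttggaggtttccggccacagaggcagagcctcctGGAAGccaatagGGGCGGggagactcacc
The Arap2 window holds 5 GC boxes and 3 ETS matches, the Efna5 window 4 GC boxes and the App window 1. The Clec11a window holds 1 GC box, 2 ETS matches and 1 C/EBP match. Of 27025 upstream windows of that length, 32.9% hold a GC box, 63.6% an ETS match, 9.55% a C/EBP match, 14.2% a Runx match and 6.05% an E-box. GC content was 80.8% for Arap2, 74.8% for Efna5 and 70.8% for App, with 36, 32 and 23 CpG dinucleotides, against 55.6% and 4 for Clec11a and medians of 52.0% and 6 over all windows. The table matched 7 of the 10 genes. Mpp7, Tmem223 and Ifi27l1 are named only.

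In progenitors every one of the 10 genes left a gap of at least 2.03 on the log2 CPM scale between its high and its low clones, a step of at least 4.08-fold. A gap of at least 1, with at least 2 clones on each side, was found in 7.04% of the genes tested, and a gap of at least 2 in 1.87%. By width the gap of Ifi27l1 ranked 6 and that of Efna5, the narrowest of the 10, ranked 209 among 11614 genes. The rule used progenitor libraries only, but the genes were picked with their monocytic levels already known, so what follows for those libraries is a description too. When the clones were labelled high or low by their progenitor level, the monocytic libraries of the high and the low clones did not overlap for 6 of the 10 genes, Clec11a, Tmem223, Mtus2, Mpp7, Arap2 and Efna5. The same was true of 8.31% of the 818 genes with a gap of at least 1, and of 13.8% of the 217 genes with a gap of at least 2. For Efna5 this rests on 1 count in clone 8 against counts of 0, and with low libraries taken at 3 counts Efna5 was lost and the count was 5. Without clones 17, 19 and 22 the count was 7, with App added. These are bulk libraries, so fewer expressing cells and less RNA per cell cannot be told apart.

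**Figure D1:**
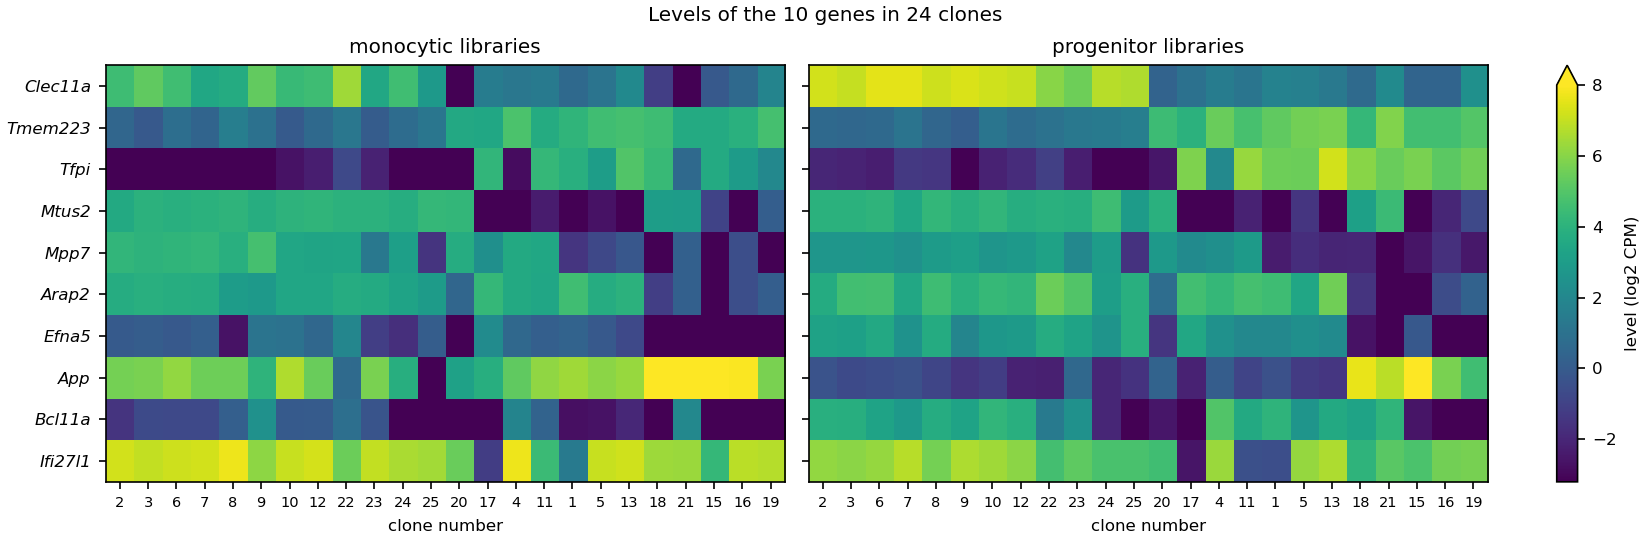
Levels of the 10 genes (rows) in each of 24 clones (columns, ordered by shared pattern) in monocytic libraries at the left and progenitor libraries at the right, as log2 CPM by colour, with values above 8 drawn in the top colour. Clec11a and Tmem223 take opposite colours in all 24 clones, and App brightens across most clones in the monocytic panel while Bcl11a and Efna5 darken.

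Clec11a, the secreted growth factor, was high in 12 clones (2, 3, 6 to 10, 12 and 22 to 25) and low in the other 12. In monocytic libraries the high clones had 7.07 CPM at the lowest (clone 25), 22.96 CPM at the median and 84.6 CPM at the highest (clone 22), against 0, 1.76 and 4.24 CPM in the low clones. In progenitor libraries the high clones had 45.5, 138 and 188 CPM at the lowest, median and highest, against 1.18, 2.26 and 5.21 CPM in the low clones. High and low clones were thus apart in both states, and without clone 22 the highest monocytic level was 39.0 CPM. Low clones were not empty: progenitors of 11 of them held 18 to 95 counts, and clone 21 held 2.

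Tfpi, the coagulation inhibitor, was high in clones 1, 4, 5, 11, 13, 15 to 19 and 21 and low in the other 13 clones. In monocytic libraries the high clones had 0.0319, 12.4 and 30.8 CPM at the lowest, median and highest, against 0, 0 and 0.502 CPM in the low clones. In progenitor libraries they had 4.12, 47.2 and 150 CPM, against 0, 0.122 and 0.367 CPM. Clone 4 supplied the lowest value both times, with 4.12 CPM in progenitors, well under the next high clone at 35.9 CPM, and a single count in monocytic cells. The other 10 high clones, at 1.44 CPM or more, lay above every low clone in monocytic cells, so clone 4 alone ended the separation.

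Efna5, the ephrin ligand, was high in 18 clones and low in clones 15, 16, 18, 19, 20 and 21. In the monocytic state the high clones had 0.0493, 0.999 and 4.44 CPM at the lowest, median and highest, and all 6 low clones had 0 counts. In progenitor libraries the high clones had 3.62, 6.93 and 14.7 CPM, against 0, 0.0240 and 0.804 CPM in the low clones. The monocytic groups do not overlap only because clone 8 had 1 count, while 0 counts in the shallow low libraries allow 0.875 to 1.505 CPM. A difference between the monocytic groups was therefore not detectable at this depth for the lower of the high clones. The 2 highest monocytic levels came from clones 17 (4.44 CPM) and 22 (3.76 CPM), which kept progenitor markers, and the next was 2.02 CPM. In progenitors, 0 counts in clone 21 do not place it, since its limit of 6.54 CPM reaches the high level.

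App, the amyloid precursor, was high in 5 clones only. In monocytic libraries it had 1143 CPM in clone 15, 677 CPM in clone 18, 381 CPM in clone 21, 245 CPM in clone 16 and 53.2 CPM in clone 19, against 0, 46.2 and 102 CPM at the lowest, median and highest of the 19 low clones. In progenitor libraries it had 300.4 CPM in clone 15, 195 CPM in clone 18, 113 CPM in clone 21, 53.4 CPM in clone 16 and 23.5 CPM in clone 19, against 0.105, 0.426 and 1.38 CPM in the low clones. The order of the 5 high clones was the same in both states. In monocytic cells 4 of the 5 lay above all low clones, and clone 19, whose monocytic library kept progenitor markers, did not. Among low clones, 16 of 19 had at least 13.9 CPM in monocytic cells, while clones 20, 22 and 25 had 9.12, 1.51 and 0 CPM.

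Arap2, which acts on Arf proteins, had the same sides as Efna5, with 18 high and 6 low clones. In the monocytic state the high clones had 6.97, 12.6 and 23.6 CPM at the lowest, median and highest, against 0, 0.793 and 1.30 CPM in the low clones. In progenitor libraries they had 8.33, 21.3 and 46.8 CPM, against 0, 0.395 and 1.62 CPM. The groups were apart in both states. Clone 21 had 0 progenitor counts, a limit of 6.54 CPM that stays under the lowest high clone, and 3 monocytic counts. The low clones were graded, with 26 progenitor counts in clone 20 and 16 in clone 19 against 0 in clone 15. With a smaller prior count of 0.5 the widest progenitor gap of Arap2 moved to a place below which only 2 clones lay. Cut there, the monocytic groups overlapped.

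Mpp7, the junction scaffold, was low in clones 1, 5, 13, 15, 16, 18, 19, 21 and 25 and high in the other 15. After maturation the high clones had 2.32, 11.9 and 26.1 CPM at the lowest, median and highest, against 0, 0.250 and 1.08 CPM in the low clones. In progenitor libraries they had 3.94, 6.47 and 9.53 CPM, against 0, 0.133 and 0.226 CPM. Clone 23 was the lowest of the high clones in both states. Clone 21 is on the low side by 0 progenitor counts, whose limit reaches the high level, but it had only 3 counts (1.08 CPM) in monocytic cells as well. The progenitor counts of the other 8 low clones were 1 to 3.

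Mtus2, the microtubule protein, was low in clones 1, 4, 5, 11, 13, 15, 16, 17 and 19. In monocytic libraries the 15 high clones had 7.90, 15.7 and 18.8 CPM at the lowest, median and highest, against 0, 0 and 1.003 CPM in the 9 low clones. In progenitor libraries they had 7.67, 15.03 and 22.8 CPM, against 0, 0 and 0.493 CPM. High clones thus stood at nearly the same level in both states, and clones 1, 4, 13 and 17 had no count in either. An antisense gene, Gm10167, overlaps Mtus2 with 1197 counts over the clone libraries, against 7468 for Mtus2. The strand setting of the counting is not given, so their reads cannot be told apart, although Gm10167 did not follow the split (its mean in the Mtus2-high clones differed from that in the low clones by a log2 difference of -0.41 in progenitors, with overlap).

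Tmem223, the mitochondrial assembly protein, was high in exactly the 12 clones that were low for Clec11a. In the monocytic state the high clones had 10.9, 16.2 and 28.7 CPM at the lowest, median and highest, against 0.847, 1.52 and 2.91 CPM in the low clones. In progenitor libraries they had 15.7, 29.3 and 58.8 CPM, against 0.999, 1.76 and 2.93 CPM. The low level was above 0 in every library, with 13 to 88 progenitor counts, and the groups were apart in both states.

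Ifi27l1, the interferon-inducible gene, was low in clones 1, 11 and 17 alone. After maturation the 21 high clones had 19.03, 125 and 212 CPM at the lowest, median and highest, against 2.58 CPM in clone 1, 21.4 CPM in clone 11 and 0.342 CPM in clone 17. In progenitor libraries the high clones had 16.7, 51.9 and 111 CPM, against 0.592, 0.609 and 0.0600 CPM in clones 1, 11 and 17. Clone 11 overlapped only the lowest high clone, clone 15, so 20 of the 21 high clones lay above all 3. Clone 17 stayed at 1 count in each state, and clones 1 and 11 had more in the monocytic state, 62 and 502 counts, than in progenitors, 14 and 10 counts. The ID counted here is named Ifi27 in a later annotation.

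Bcl11a, the zinc finger repressor, was low in clones 15, 16, 17, 19, 20, 24 and 25 and high in the other 17. In the monocytic state the high clones had 0, 0.696 and 5.39 CPM at the lowest, median and highest, and all 7 low clones had 0 counts. In progenitor libraries the high clones had 2.57, 12.02 and 30.7 CPM, against 0, 0 and 0.144 CPM in the low clones. The split could not be followed into the monocytic state, because clone 18 had 204 progenitor counts and no monocytic count, and 0 counts in the low libraries allow 0.602 to 1.505 CPM. Clones 9, 21 and 4 kept the most, with 5.39, 3.95 and 3.48 CPM.

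**Figure D2:**
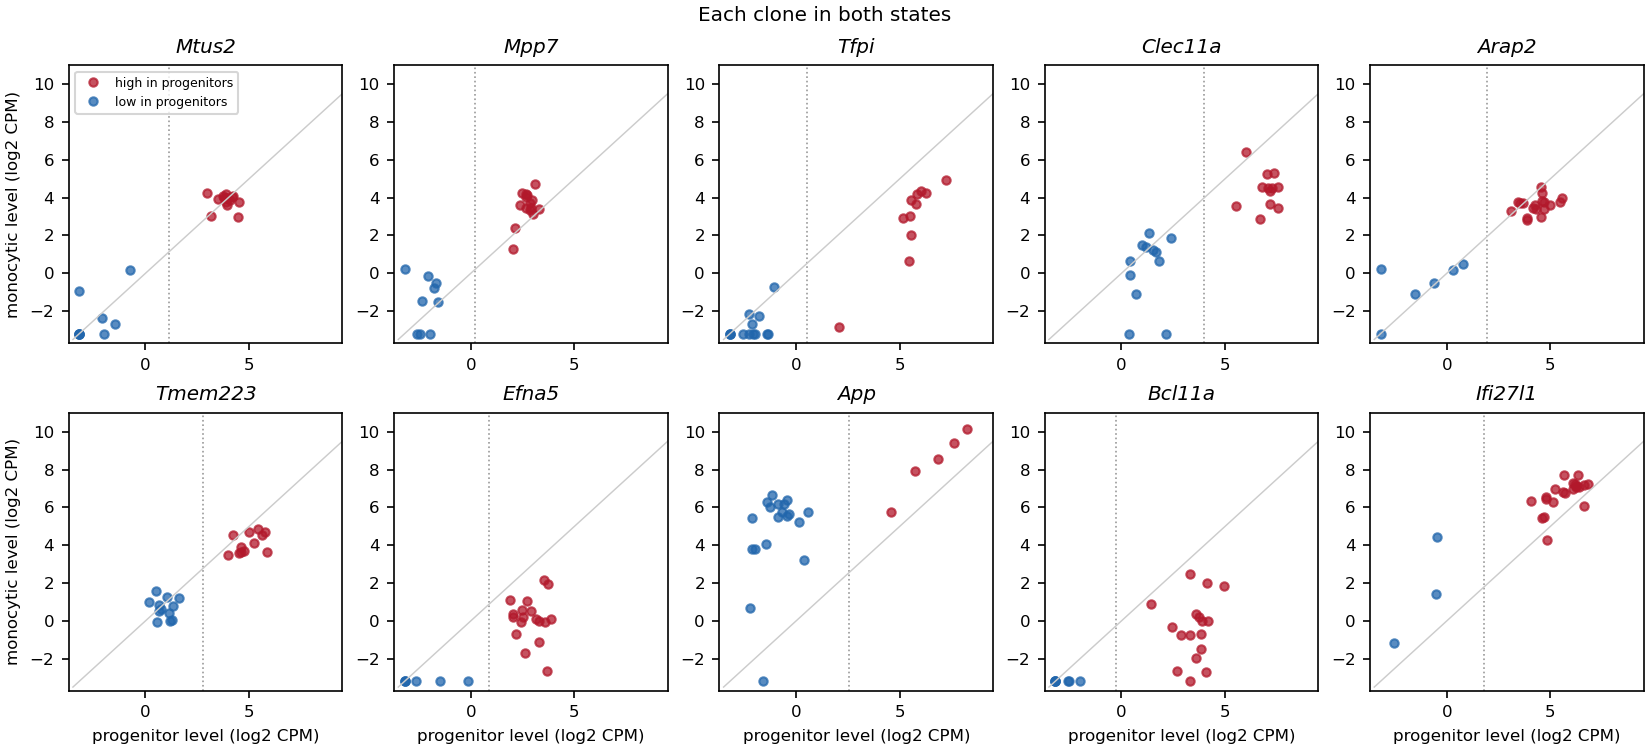
Level of each gene in the monocytic (y axis) against the progenitor library (x axis) of the same clone, in log2 CPM, with clones high in progenitors in red and clones low in blue. The dotted line is the middle of the progenitor gap and the grey diagonal marks equal levels. Red and blue points separate on the y axis for Mtus2, Mpp7, Clec11a, Arap2, Tmem223 and Efna5, the last by 1 count in clone 8 only. For App, 18 of the 19 blue points lie above the diagonal.

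The splits were not 10 separate patterns. Clec11a and Tmem223 were on opposite sides in 24 of 24 clones, and Arap2 and Efna5 were on the same side in 24 of 24. With a prior count of 0.5 in place of 2, clones 16, 18, 19 and 20 moved to the high side of Arap2 and none moved for Efna5. Clone 21 had 0 progenitor counts for Efna5, and its limit of 6.54 CPM reaches the high level. Tfpi was on the same side as Tmem223 in 23 clones and opposite to Clec11a in 23, clone 20 being the exception both times. Mtus2 was on the side of Clec11a in 21 clones, with clones 18, 20 and 21 as exceptions, and opposite to Tfpi in 22. App was opposite to Arap2 and Efna5 in 23 clones, again with clone 20 as the exception, where App, Arap2 and Efna5 were all low. Mpp7 was on the side of Arap2, and of Clec11a, in 19 clones. Ifi27l1 and Bcl11a shared a side with any other gene in at most 19 clones. These counts describe the progenitor levels by which the genes were chosen, and they have no test.

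**Figure D3:**
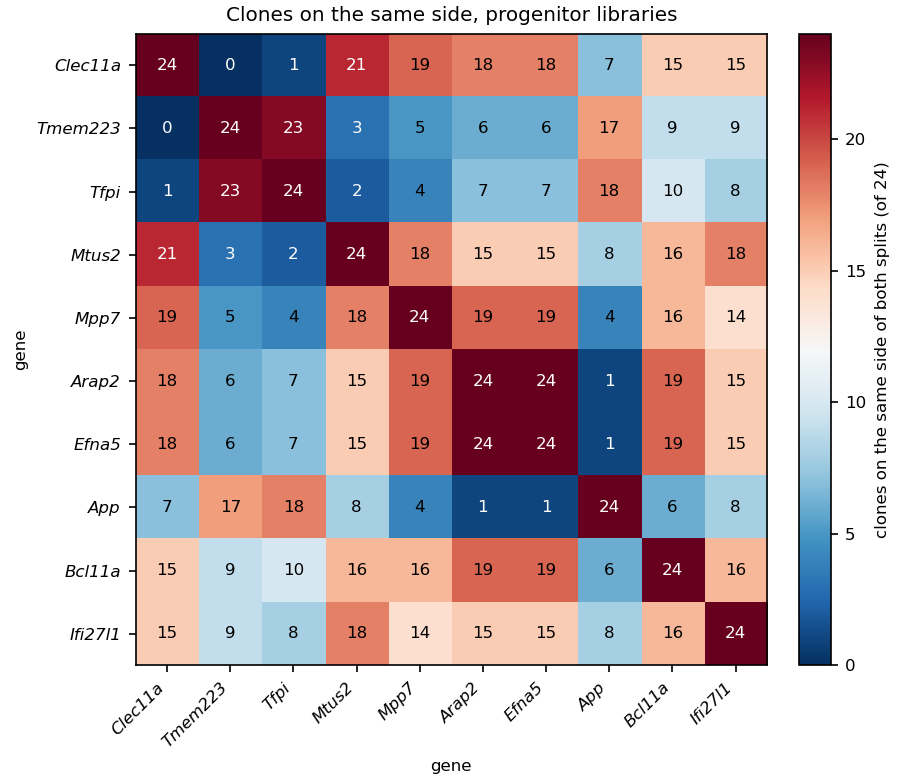
Number of the 24 clones whose progenitor library is on the same side of the splits of 2 genes (rows and columns), where 24 is full sharing and 0 full mirroring. At the prior count of 2, Arap2 and Efna5 share 24, Clec11a and Tmem223 share 0, and App shares 1 with Arap2 and with Efna5.

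By clone, 10 clones (2, 3, 6 to 10, 12, 22 and 23) had one and the same pattern, high for Mtus2, Mpp7, Clec11a, Arap2, Efna5, Bcl11a and Ifi27l1 and low for Tfpi, Tmem223 and App. Clone 24 differed from it in Bcl11a, and clone 25 in Bcl11a and Mpp7. Clones 15, 16 and 19 shared another pattern, high for Tfpi, Tmem223, App and Ifi27l1 only, clones 18 and 21 added Mtus2 and Bcl11a to it, and clones 5 and 13 were alike. Clone 21 is on the low side for Mpp7 and Efna5 by 0 progenitor counts, whose limit reaches the high levels of these genes. The remaining clones, 1, 4, 11, 17 and 20, each had a pattern of their own. The sides of Mtus2, Mpp7, Tfpi, Clec11a, Tmem223 and Ifi27l1 were mixed in clones 1 to 13 and in clones 15 to 25. Clones 1 to 13 were all high for Arap2, Efna5 and Bcl11a and all low for App, so those 4 splits lie entirely within clones 15 to 25, the clones with shallow monocytic libraries. Within clones 15 to 25 the monocytic groups did not overlap for 8 of the 10 genes, App and Bcl11a being the exceptions, and within clones 1 to 13 for 5 of the 6 genes with clones on both sides, Tfpi being the exception. Of all genes with a gap of at least 1 and clones on both sides within the set, this held for 20% of 790 in clones 15 to 25 and for 19.3% of 181 in clones 1 to 13. Within clones 15 to 25, Efna5 rests on 1 count in clone 24 against counts of 0. Ifi27l1 has clone 17 as its single low clone there, and the monocytic library of clone 17 kept progenitor markers. The count within this set was not repeated without clones 17, 19 and 22.

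**Figure D4:**
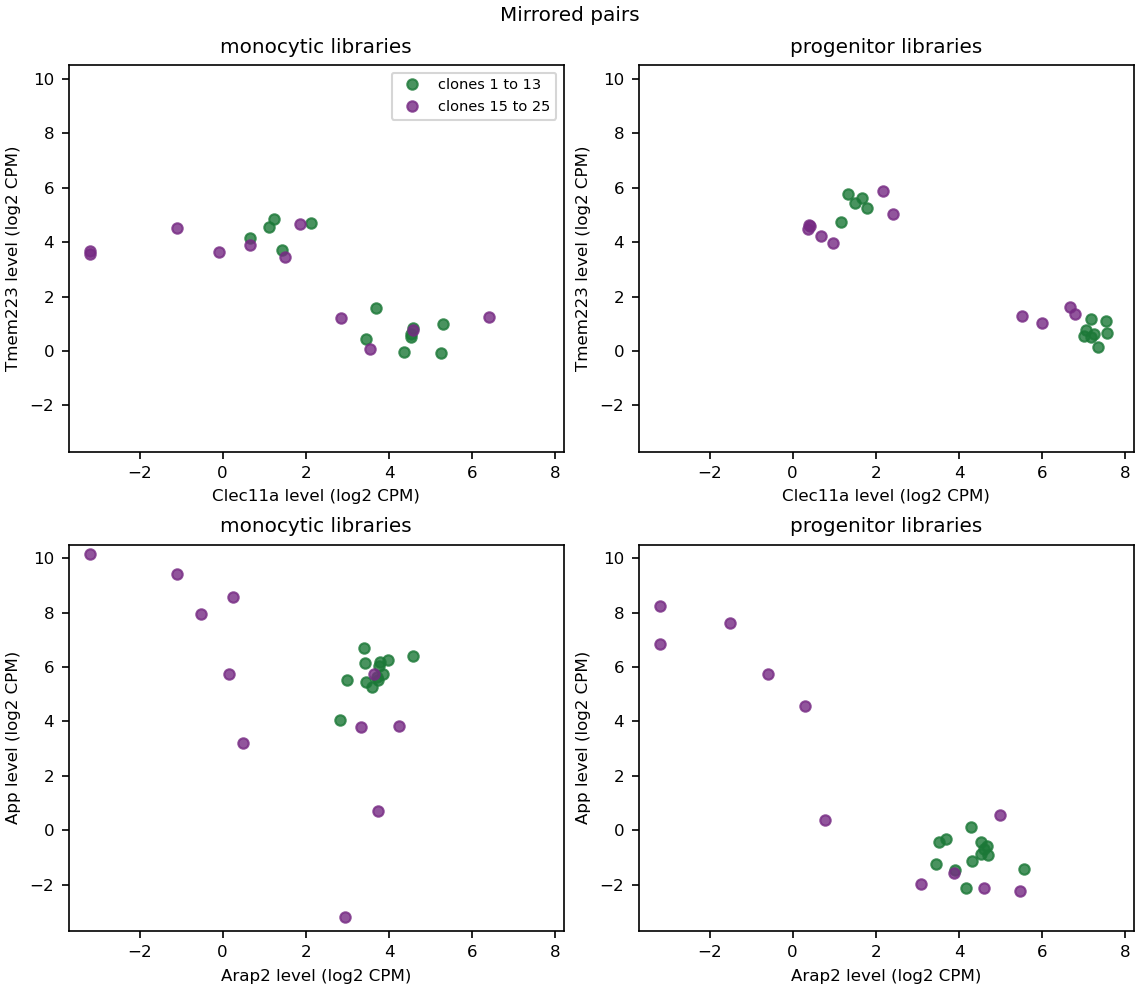
Levels (log2 CPM) of Tmem223 against Clec11a and of App against Arap2, in monocytic libraries at the left and progenitor libraries at the right, with 1 point per clone. The Clec11a and Tmem223 points form 2 separate groups in both states, with 12 clones each, whereas App rises in the clones high for Arap2 in the monocytic panel.

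Levels of 9 cell type marker lists, monocyte and progenitor markers included, were summed per library. Over all 24 clones these sums overlapped between high and low clones for every one of the 10 genes in both states. Their medians differed for some splits. In progenitors the median sum of 8 mast cell and basophil markers was 6617 CPM in clones high for Arap2 and Efna5, against 2434 CPM in clones low for them, and 7724 CPM in clones high for Clec11a, against 3822 CPM in its low clones. Neutrophil markers ran the other way, with medians of 49.0 CPM in Arap2-high and 520.8 CPM in Arap2-low clones, and 41.7 CPM in Clec11a-high and 380.9 CPM in Clec11a-low clones. Erythroid and megakaryocyte markers had medians of 332 CPM in Arap2-high and 127 CPM in Arap2-low clones. All Arap2-low clones lie in clones 15 to 25, so these Arap2 contrasts mix side with clone set. Within that set, mast cell and basophil sums were 2047 to 8890 CPM in Arap2-high and 912 to 6500 CPM in Arap2-low clones. Erythroid and megakaryocyte sums were 92.5 to 427 CPM against 45.2 to 368 CPM there. Neutrophil sums were 11.6 to 57.8 CPM against 57.9 to 7814 CPM, so within this set they did not overlap, by a narrow margin. In progenitors the B cell list summed to 12.6 to 101 CPM, the T and NK cell list to 36.4 to 241 CPM and the endothelial and stromal list to 120 to 461 CPM. Under 1 CPM in all 24 libraries were 3 of 8 B cell, 5 of 6 T and NK cell and 5 of 9 endothelial and stromal markers, Pax5, Cd3e and Cdh5 among them. The other markers of each list were not. In monocytic libraries neutrophil markers summed to 264 to 195000 CPM (median 60030 CPM) and monocyte markers to 4904 to 62250 CPM (median 33210 CPM). Neutrophil markers had a median of 1502 CPM in the primary libraries. Medians differed between sides in monocytic libraries as well. For Bcl11a the neutrophil median was 76480 CPM in high and 19770 CPM in low clones. The part of these cell types in the splits was not tested.

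Next, the monocytic and progenitor states were compared within clones. With edgeR's quasi-likelihood test and Benjamini-Hochberg adjustment over 11614 genes, 9 of the 10 genes changed, 3 higher and 6 lower in monocytic cells. Of all genes tested, 78.6% changed (38.5% higher and 40.1% lower), so 9 of 10 is near the background. App rose most, by a log2 change of 5.40 ± 0.542 (SE, n = 24 clones, edgeR adjusted p = 6.34e-10), followed by Ifi27l1 with 1.24 ± 0.203 (adjusted p = 3.42e-06) and Mpp7 with 0.95 ± 0.176 (adjusted p = 1.88e-05). App stood higher in the monocytic member of the pair in 23 of 24 clones, and without the clone block its log2 change was 2.39 (adjusted p = 0.0111). Among the 6 that fell, the log2 change was -3.92 ± 0.425 for Bcl11a (adjusted p = 1.06e-08), -2.71 ± 0.307 for Efna5 (adjusted p = 1.52e-08) and -2.39 ± 0.304 for Tfpi (adjusted p = 1.14e-07). It was -1.67 ± 0.322 for Clec11a (adjusted p = 3.37e-05), -0.62 ± 0.150 for Arap2 (adjusted p = 5.39e-04) and -0.52 ± 0.157 for Tmem223 (adjusted p = 0.00413). Mtus2 had a log2 change of 0.01 ± 0.212 (adjusted p = 0.978) and did not pass. Without clones 17, 19 and 22, 8 of the 9 genes then tested passed, Tfpi being removed by the filter.

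The change was also read by side. All 18 high clones of Efna5, all 17 of Bcl11a and all 11 of Tfpi were lower in the monocytic state, with median log2 changes of -2.42, -3.87 and -2.23, and medians of -0.26, 0 and -0.55 in their low clones. Clec11a was lower in the monocytic library of 11 of 12 high clones (median -2.62) and of 8 of 12 low clones (median -0.51). For App the 5 high clones had a median log2 change of 1.80 and the 19 low clones 5.97. Low clones of Efna5, Bcl11a and Tfpi stood at or near 0 counts in progenitors and could hardly fall, so their medians are set by that floor and the prior count. Sides come from the same progenitor levels that enter these changes, so the contrast between sides is a description.

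The change was also compared between clones 15 to 25 and clones 1 to 13. It differed for 2 of the 10 genes by edgeR's test of the difference, against 23.7% of all genes. App changed by 2.94 ± 0.501 in clones 15 to 25 and by 6.99 ± 0.255 in clones 1 to 13 on the log2 scale (SE, n = 11 and 13 clones), a difference of -4.14 ± 0.565 (edgeR adjusted p = 2.14e-05), and all 5 of its high clones are among clones 15 to 25. Mpp7 differed by -1.11 ± 0.300 (edgeR adjusted p = 0.00904), and without clones 17, 19 and 22 it did not pass (-1.01, adjusted p = 0.0694). Clones 15 to 25 also have the shallower monocytic libraries, and depth and clone set cannot be told apart.

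Other genes with the same clones on each side were then listed. Among the 818 genes with a gap of at least 1, 12 further genes had exactly the high and low clones of Arap2 and Efna5, and Ptk7 and Cntnap1 had the exact mirror of it. Chosen for mention after their values were seen, they include Gbp4, Gbp8 and Gbp9, guanylate-binding GTPases of the interferon response, Igfbp7, a secreted binding protein of growth factors and Sdc1, a cell surface proteoglycan. Of the 12, 5 lie on chromosome 5, as Arap2 does, and these include Gbp4, Gbp8 and Gbp9 of 1 family. The share of all tested genes on that chromosome was not counted, so nothing is read from this number. For all 14 the monocytic groups overlapped. Clone 21 is on the low side of the Arap2 split, and 0 progenitor counts in it allow up to 6.54 CPM. For a gene as low as Akap12, with a mean of 2.52 CPM in the Arap2-high progenitors, 0 counts do not place that clone. Gbp4 averaged 4.77 CPM in high and 6.74 CPM in low clones in monocytic libraries, against 75.3 and 0.0546 CPM in progenitors. App was mirrored exactly by 5730409E04Rik. For Mtus2, Mpp7, Tfpi, Bcl11a and Ifi27l1 no gene with such a gap had exactly the same sides or their mirror, and for Clec11a and Tmem223 none did besides each other.

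Likeness of level was measured as Pearson's r of log2 CPM over the 24 progenitor libraries, which for genes with 2 levels mostly reads the split. The libraries share their scaling, and r over the 24 monocytic libraries is given beside it. Arap2 was most like Gbp4 (r = 0.953, and 0.144 in monocytic libraries), and Efna5 like Gbp9 (0.954 and 0.0691) and Plcb1, a phospholipase (0.948 and 0.855). Clec11a was most like Rnf217, a ubiquitin ligase (0.843 and 0.808), and Tfpi like Cdk5rap1, a tRNA-modifying enzyme (0.857 and 0.701). Tmem223 was most like Zfp605 (0.857 and 0.813). App was most like Mfsd7a (0.882 and 0.572), Bcl11a like Thoc3 (0.869 and 0.213) and Mtus2 like Tln2 (0.671 and 0.466). Ifi27l1 was most like Gpc3, an X-linked cell surface proteoglycan (0.850 and 0.608).

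Genes beside the 10 on the chromosome were compared next, and by the number of clones the nearest to sharing a split was Ifi27l2a. Of 40 neighbours, the 2 nearest tested genes on each side, all had overlapping progenitor levels between the high and low clones, and 3 differed by at least 1 in mean log2 CPM. Ifi27l2a, which lies 1.9 kb from Ifi27l1 in the GENCODE annotation of GRCm38 and belongs to the same family, was higher in the high clones by 4.46 in monocytic and by 1.99 in progenitor libraries. Its own progenitor gap of 1.21, with 21 high and 3 low clones, put 22 of 24 clones on the side they have for Ifi27l1. Pcdh7, the nearest tested gene on one side of Arap2 but 4469 kb away, was higher in the Arap2-high clones by 1.70 in monocytic and by 1.83 in progenitor libraries. Emr1, 5121 kb from Efna5, was higher in the Efna5-high clones by 0.87 in monocytic and by 2.001 in progenitor libraries. Tmem223 sits within 0.1 kb of Nxf1 and of Tmem179b, and those genes differed by -0.02 and 0.09 in monocytic and by 0.26 and -0.61 in progenitor libraries, against 3.44 in monocytic and 4.07 in progenitor libraries for Tmem223 itself. Calcrl, 7.4 kb from Tfpi, differed by -0.26 in monocytic and by -0.23 in progenitor libraries.

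Genes of the same pathways were compared between the states as well. Of 99 related genes tested, 11 (11.1%) had a progenitor gap of at least 1, against 7.04% of all genes. The monocytic groups overlapped for all 11, as they did for most genes with such a gap, of which 8.31% stayed apart. All 5 tested Eph and ephrin genes fell, against 40.1% of all genes tested, with a median log2 change of -3.502 against -0.02 over all genes. Among them were the receptor Ephb2 (-5.48 ± 0.400, edgeR adjusted p = 1.77e-12) and the ligand Efna4 (-4.95 ± 0.424, adjusted p = 4.32e-11). All 16 tested genes of the Ifi27 family and the interferon response rose (median 4.49), against 38.5% of all genes tested. They were led by Ifit3 (7.54 ± 0.582, edgeR adjusted p = 3.22e-12) and Ifi27l2a (5.88 ± 0.459, adjusted p = 4.15e-12).

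For the lists that follow, the share of all genes that rose was 38.5% and the share that fell 40.1%, and several lists lie near these. Among App relatives and processing genes 8 of 14 rose and 4 fell (median 0.38). The secretase subunit Aph1b rose (3.86 ± 0.247, edgeR adjusted p = 7.51e-14), the protease Ide fell (-1.39 ± 0.141, adjusted p = 8.17e-10), and Adam17, an alpha-secretase, did not pass (-0.28 ± 0.148, adjusted p = 0.0869). Of 7 genes of the tissue factor pathway 3 rose and 1 fell (median 0.83), with coagulation factors F7 (3.81 ± 0.399, adjusted p = 1.44e-09) and F10 (3.46 ± 0.273, adjusted p = 5.09e-12) higher and the thrombin receptor F2r lower (-6.73 ± 0.428, adjusted p = 1.22e-13).

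Of 5 growth factors and lectins 3 rose and 2 fell (median 0.83). Csf1, the macrophage growth factor, rose (3.69 ± 0.221, edgeR adjusted p = 2.05e-14) and Angpt1, a ligand of Tek, fell (-7.13 ± 0.327, adjusted p = 1.08e-16). Of 15 Arf GAPs 9 rose and 2 fell (median 0.53), and the relatives Arap3 (2.11 ± 0.162, adjusted p = 2.81e-12) and Arap1 (1.71 ± 0.115, adjusted p = 2.27e-13) were among those that rose, while Arap2 fell. Of 7 Mpp and polarity genes 3 rose and 1 fell (median 0.23), Mpp1 most (2.88 ± 0.115, adjusted p = 6.92e-18). Of 9 microtubule genes 4 rose and 1 fell (median -0.04), with Mtus1, the relative of Mtus2, higher (4.30 ± 0.411, adjusted p = 2.47e-10). Of 10 cytochrome c oxidase assembly genes 2 rose and 7 fell (median -0.50), and of 11 Bcl11a relatives and partners 2 rose and 5 fell (median -0.24), with Myb, a progenitor transcription factor, at -3.03 ± 0.296 (adjusted p = 3.63e-10).

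Primary monocytes reached the high clones for some of these genes, the low clones for others, and lay between the levels for the rest. Tmem223 (16.2 to 38.6 CPM over 14 libraries), App (124 to 694 CPM) and Bcl11a (37.7 to 77.9 CPM) were above the lowest high clone of both states in all 14 libraries, and Bcl11a lay above every clone library, the highest of which had 30.7 CPM. Mpp7 (2.15 to 15.9 CPM) and Arap2 (2.04 to 33.9 CPM) were above the highest low clone of both states in all 14 libraries, but not all reached the high level. Mpp7 reached the lowest high monocytic clone in 13 libraries and the lowest high progenitor clone in 11, and Arap2 did so in 9 and 8. Efna5 had 0 counts in 13 libraries and 0.0518 CPM in the other. Tfpi (0 to 21.7 CPM) reached the lowest high progenitor clone, clone 4, in 12 of 14 libraries, and the next high clone at 35.9 CPM in 0 of 14. Ifi27l1 (10.6 to 103 CPM) reached the lowest high progenitor clone in 9. Mtus2 had 0 to 2.61 CPM, under the lowest high clone of both states in all 14, and it was at or below the highest low clone in 8 of 14 for monocytic and in 4 of 14 for progenitor levels, so most primary libraries lay between the 2 progenitor levels. Clec11a was at or below the highest low progenitor clone in 12 of 14 libraries, with 12.8 CPM in a class 4 library as the highest value. Levels of clones and primary cells were set side by side without a test, because they come from separate sources.

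**Figure D5:**
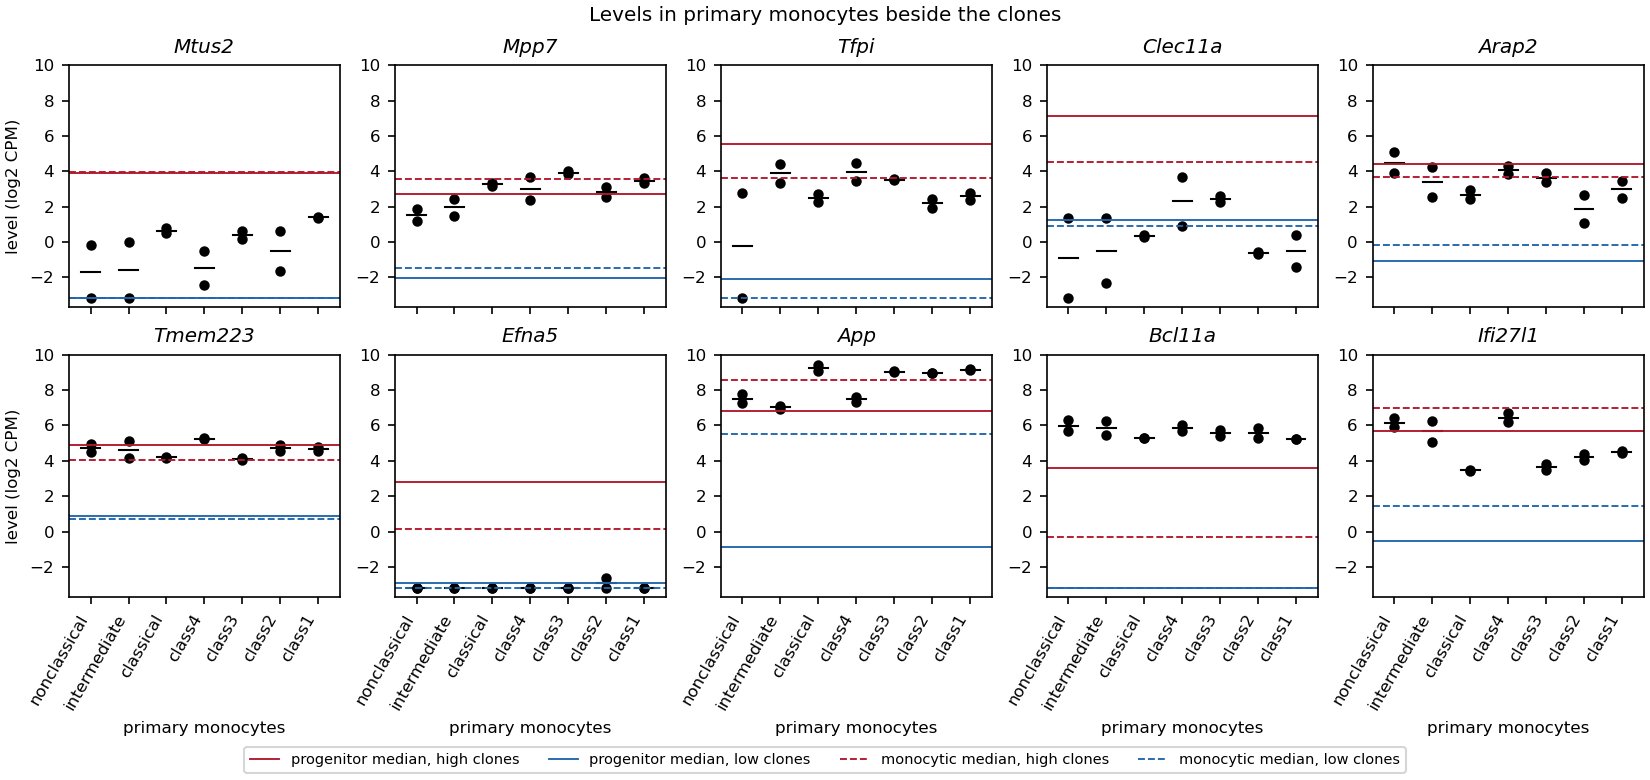
Levels (log2 CPM) of the 10 genes in 7 groups of primary monocytes, with 2 libraries each as points and their mean as a short bar. Red and blue lines are the medians of the high and low clones, solid for progenitor and dashed for monocytic libraries, and Bcl11a lies above both red lines while Efna5 lies at the blue lines.

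Among nonclassical, intermediate and classical monocytes, 1 of the 9 genes that passed the filter differed by edgeR's F test over the 3 groups, against 2.95% of 13944 genes. App had 154 and 218 CPM in nonclassical, 124 and 137 CPM in intermediate and 693.5 and 543 CPM in classical monocytes (edgeR adjusted p = 0.0287), with both classical libraries above the rest. With 1 library left out the adjusted p ran from 0.0476 to 0.336, and App passed in 1 of 6 such fits, the one without nonclassical replicate 1. Ifi27l1 had 86.0 and 59.6 CPM in nonclassical, 76.6 and 33.4 CPM in intermediate and 11.2 and 10.6 CPM in classical monocytes, groups that leave classical lowest, and did not pass (edgeR adjusted p = 0.0952, and 5.27e-05 with DESeq2). Tfpi, Clec11a and Mtus2 had no count in nonclassical replicate 2. Summed B cell markers were 2045 to 2184 CPM in nonclassical, 480 to 486 CPM in intermediate and 36 to 38 CPM in classical libraries, and mast cell and basophil markers 1805 to 7193, 4136 to 8893 and 13 to 19 CPM. Progenitor markers summed to 320 and 520.5 CPM in nonclassical, 3551 and 9026 CPM in intermediate and 313 and 468 CPM in classical libraries, and erythroid markers to 132 and 185, 446 and 147, and 3.65 and 7.66 CPM. Neutrophil markers summed to 392 to 1586 CPM in nonclassical, 5185 to 5560 CPM in intermediate and 1009 to 1416 CPM in classical libraries. Their part in these differences was not tested.

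Among the 4 classes 5 of 9 genes differed by edgeR's F test, against 43.8% of 13686 genes. App had 197 and 161 CPM in class 4, 537 and 522 CPM in class 3, 492.5 and 507 CPM in class 2 and 583 and 561 CPM in class 1 (edgeR adjusted p = 1.89e-04). Ifi27l1 ran the other way, with 73.6 and 103 CPM in class 4, 14.3 and 11.1 CPM in class 3, 21.2 and 16.4 CPM in class 2 and 23.1 and 21.8 CPM in class 1 (adjusted p = 2.38e-04). Class 4 thus stood apart from the other classes for both genes. Tmem223 had 37.4 and 38.6 CPM in class 4, 16.2 and 17.95 CPM in class 3, 29.3 and 23.5 CPM in class 2 and 27.7 and 23.8 CPM in class 1 (edgeR adjusted p = 0.0147).

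Tfpi had 21.7 and 10.8 CPM in class 4, 11.2 and 11.6 CPM in class 3, 3.70 and 5.29 CPM in class 2 and 6.83 and 5.02 CPM in class 1 (edgeR adjusted p = 0.0295). Clec11a had 1.79 and 12.8 CPM in class 4, 5.98 and 4.74 CPM in class 3, 0.577 and 0.518 CPM in class 2 and 0.270 and 1.19 CPM in class 1 (edgeR adjusted p = 0.0400). Classes 4 and 3 were the higher ones for both genes. Progenitor markers summed to 6637 and 6967 CPM in class 4 and 3431 and 4425 CPM in class 3, against 124 and 154 CPM in class 2 and 440 and 687 CPM in class 1. In class 3, neutrophil markers summed to 6420 to 10620 CPM and mast cell and basophil markers to 400 to 932 CPM. Class 4 had the highest sums of B cell (2340 to 2871 CPM), erythroid (3219 to 4191 CPM) and neutrophil markers (49150 to 68540 CPM) of the 14 libraries, and the part of such cells was not tested. Without class 4, App did not pass (edgeR adjusted p = 0.650), while Tfpi, Clec11a, Tmem223 and Ifi27l1 did (adjusted p = 0.0258, 0.0100, 0.0448 and 0.0471). With 1 library left out, App and Ifi27l1 passed in 8 of 8 fits, Tmem223 in 6, Clec11a in 3 and Tfpi in 2.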

How the data were processed

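RNA was sequenced from 48 libraries of 24 clones and from 14 libraries of primary mouse monocytes. The authors deposited raw counts per gene. The submitters' processing notes name STAR 2.7.3a, HTSeq 0.6.0 and the build mm9, and the strand setting is not given in the sources used here. Of the count columns, 1 matched no sample and was not used.

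The 10 genes and the gene lists were chosen with earlier results of these data known. Counts were scaled with TMM in edgeR 4.0.16 (R 4.3.3) over the 62 libraries. Log2 CPM used a prior count of 2, at which 0 counts are -3.19. A gene's split is the widest gap between neighbouring log2 CPM of the 24 progenitor libraries with at least 2 clones on each side. Gaps were compared over the 11614 genes tested.

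Tests were edgeR's quasi-likelihood F tests after filterByExpr with a minimum count of 10, with Benjamini-Hochberg adjustment over all genes tested and a threshold of 0.05. The comparison of states kept the clone as a block, because both libraries of a clone come from 1 line. Deviations of paired libraries correlated above 0.1 in 21 of 24 clones (mean r = 0.236). Replicate numbers of nonclassical, intermediate and classical libraries correlated as well (r = 0.180, 0.281 and 0.384), those of the classes at -0.0106 to 0.0728. The fits and the gap search were tested on simulated data. Alternatives covered scaling, filter, tool (DESeq2 1.42.0), prior count, block and libraries left out. Genes to name were, by rule, the 10 genes and, for each, the 3 tested genes with the highest Pearson r and the 2 nearest on each side. The ranking by r left out the 10 genes and genes with provisional names. From each related list the rule named the 2 largest changes in each direction that passed and the most expressed gene that did not. The text prints those the results turn on, and some genes the rule names are not reported here.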

Additional observations from a re-analysis of the deposited data

Results flagged for a closer look

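The change between monocytic and progenitor cells differed between clones 15 to 25 and clones 1 to 13 for App by -4.14 and for Mpp7 by -1.11 on the log2 scale, each by edgeR's test of the difference (adjusted p = 2.14e-05 and 0.00904). For App all 13 clones of the set 1 to 13 were low in progenitors, and the 5 high clones lie in the set 15 to 25. For Mpp7, 6 of 11 clones were low in the set 15 to 25 and 3 of 13 in the set 1 to 13. Depth also differs between the sets, and its part was not tested.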

How the results depend on the processing

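All 10 genes had a gap of at least 1 under every other scaling, prior count and choice of clones run, but the sides moved for Tfpi, where clone 4 joined the low side with DESeq2 size factors and with total counts, and for Arap2, where 4 clones joined the high side with a prior count of 0.5. The number of genes whose monocytic groups did not overlap was 6. It was 8 with DESeq2 size factors (Ifi27l1 added, and Tfpi through the move of clone 4) and 7 with total counts (Tfpi likewise). It was 5 with a prior count of 0.5 (Arap2 lost, its sides having moved) and 5 with low libraries taken at 3 counts (Efna5 lost). Without clones 17, 19 and 22 it was 7. These last 2 settings were chosen after seeing the data. For the comparison of states 9 genes passed, 7 in clones 1 to 13 alone and 5 in clones 15 to 25 alone, where only 6 pass the filter. The log2 change of Mtus2, never past the threshold, turned to -0.10 with no filter, -0.025 in clones 1 to 13 and -0.030 without clones 17, 19 and 22. For the difference between clone sets 1 gene passed without these 3 clones, and neither Clec11a (-0.39 there) nor Arap2 (-0.043 without clone 21), whose sign turned, was past the threshold. The cause was not tested.

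With no replicate block 6 genes passed between states (Mpp7, Arap2 and Tmem223 lost, with log2 changes of 0.999, -0.73 and -0.78 and adjusted p = 0.0843, 0.114 and 0.169), and the log2 change of App was 2.39 in place of 5.40. With a replicate block the counts for nonclassical, intermediate and classical cells and for the classes stayed at 1 and 5. The class numbers did not deviate together.

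For nonclassical, intermediate and classical cells 2 genes passed with DESeq2, and 0 to 1 with 1 library left out. Over all genes 412 passed, 3613 with DESeq2 and 0 to 404 with 1 library left out. At 0 calls, 1164 to 3440 genes had an unadjusted p under 0.05. For the classes 2 to 6 genes passed with 1 library left out and 4 without class 4. A lone library was assumed to vary like the other groups. Shallow libraries of clones 15 to 25 limit what 0 counts show for Efna5, Bcl11a and Mpp7.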
